A study of Mus musculus with 11 samples.

Results

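The cytosolic ribosomal protein genes encode the proteins of the ribosomes that translate cellular messenger RNA. They were taken by symbol as the Rpl and Rps genes followed by a number, with the stalk genes Rplp0, Rplp1 and Rplp2. Rpsa and the near-copies Rps27l, Rpl22l1, Rpl36al and Rpl7l1 were included. Rows named as -ps pseudogenes and the Rps6k kinases were left out. This rule used no measured value and found 84 genes among 24421 gene rows, 52 of the large subunit and 32 of the small subunit. Rps4l, annotated as a transcribed processed pseudogene, matched the rule by its symbol and is counted among them. They were followed in the hippocampus, the brain region of memory formation, of adult mice. PM offspring had mothers dosed through the nose with particulate matter at 200 µg/kg on pregnancy days 9, 12 and 15, and Vehicle offspring had mothers given normal saline. Birth was on day 21, and the offspring were 14 to 18 weeks old at sampling. The labels name no strain, genotype or allele and no agent given to both groups. RNA sequencing covered 6 PM and 5 Vehicle libraries, deposited in 2 sets: PM 1 to 3 with Vehicle 1 to 3, and PM 4 to 6 with Vehicle 4 and 5. Whether each library stands for its own animal or litter is not stated in the labels. The p-values therefore reflect only how much these samples varied, and part of that variation may be technical.

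A ribosome holds 1 copy of nearly every ribosomal protein, apart from the acidic stalk proteins, and cells therefore make these proteins in a nearly fixed ratio. The messages are short and abundant, and many begin with a pyrimidine-rich stretch, the 5′ terminal oligopyrimidine (TOP) motif, through which the kinase mTOR and the RNA-binding protein Larp1 control their translation. In neurons the messages are also found in dendrites and axons. Free Rpl5 and Rpl11, when not built into a ribosome, bind Mdm2 and stabilise p53.

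Libraries differed between the groups beyond these genes. Counts assigned to genes ranged between 10938521 and 17763893 in PM libraries, against 6012116 to 12496651 in Vehicle libraries. Counts assigned to no annotated feature took 18.8% to 34.0% of all counts in PM and 60.9% to 62.0% in Vehicle. Alignments that were not unique took 7.22% to 9.90% in PM and 4.21% to 4.75% in Vehicle. The ribosomal RNA precursor Rn45s took 4.01% to 17.0% of gene counts in PM and 0.792% to 2.17% in Vehicle, and the nuclear RNA Malat1 took 0.0827% to 0.807% in PM and 2.12% to 2.33% in Vehicle. Across all 14424 tested genes with a transcript length, the log2 fold change between PM and Vehicle fell with length (Spearman's rho -0.450, a description across genes, which are not independent). Ribosomal protein transcripts have a median length of 780 bases, against 2874 for all tested genes. The part of these library differences in the values below was not tested, except for length and base composition, whose trend was removed in a second fit. Rpph1 and Rmrp, the RNA parts of RNase P and RNase MRP, had log2 fold changes of -7.98 and -7.38, and Lars2, a mitochondrial synthetase, had 7.73. The labels give the same preparation for both groups. A difference in how the groups' libraries were prepared or counted and an effect of the exposure cannot be told apart in these counts. In bulk tissue, fewer cells of a type and less RNA per cell cannot be told apart.

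Ribosomal protein messages took a larger share of the counts in PM than in Vehicle libraries. The 84 genes together took 1.63%, 2.21%, 2.67%, 1.63%, 1.83% and 1.49% of gene counts in PM libraries 1 to 6, and 0.604%, 0.586%, 0.601%, 0.599% and 0.579% in Vehicle libraries 1 to 5. Every PM library lay above every Vehicle library. The PM libraries also differed much more among themselves: their mean was 1.91% ± 0.448 (SD, n = 6), against 0.594% ± 0.0108 in Vehicle (SD, n = 5). PM 3 was highest and PM 6 lowest, and the ratio of the means was 3.22. With all counts as the denominator, those outside features included, the ratio was 6.25. Large subunit genes took 0.895% to 1.57% in PM and 0.351% to 0.373% in Vehicle, and small subunit genes took 0.595% to 1.09% in PM and 0.228% to 0.235% in Vehicle.

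**Figure D1:**
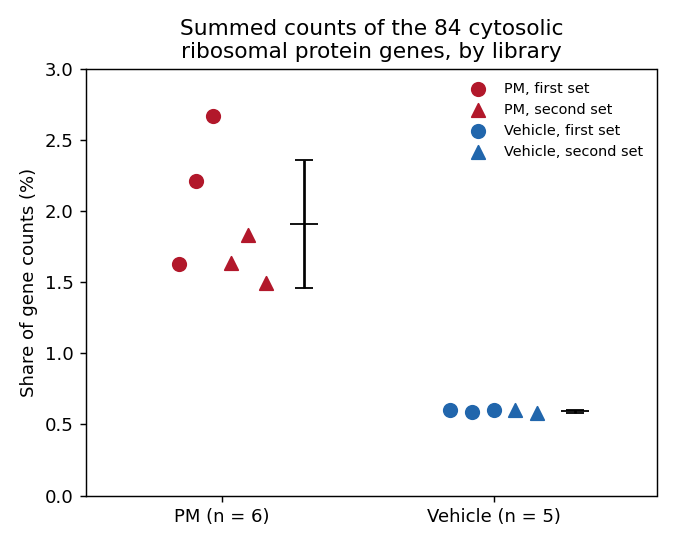
Share of gene counts (in percent, vertical axis) taken by the 84 cytosolic ribosomal protein genes together, 1 point per library, with mean ± SD beside each group. The 6 PM libraries lie between 1.49% and 2.67%, and the 5 Vehicle libraries between 0.579% and 0.604%.

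Gene by gene, 77 of the 84 passed the filter on low counts and were tested with all 14982 genes in edgeR's quasi-likelihood test. The lowest mean Vehicle level among them was 5.53 CPM, the gene's count relative to the scaled library total, so none passed through PM libraries alone. At an adjusted p (Benjamini-Hochberg over all tested genes) below 0.05, 75 rose in PM, none fell, and Rps26 and Rps6 did not pass. Those 75 are 97.4% of the tested genes of the family, where 32.7% of all tested genes were higher and 36.4% lower. The median log2 fold change was 1.79, a fold of 3.47, and the quartiles were 1.40 and 2.21, where the median of all tested genes was -0.045. In 74 of the 77 genes every PM library lay above every Vehicle library, which was so for 24.3% of all tested genes. The exceptions were Rps26, Rps6 and Rps10. A rise of 2-fold or more was seen in 68 genes, where 11.7% of all tested genes rose that much, and of 4-fold or more in 28. Of the 100 tested genes with the largest log2 fold change 26 were ribosomal protein genes, which are 77 of the 14982 tested.

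All 46 tested large subunit genes rose, with a median log2 fold change of 1.63, and so did 29 of the 31 tested small subunit genes, with a median of 1.94. Large subunit values ran between 0.50 and 2.88 and small subunit values between 0.031 and 3.57. Removing the trend with transcript length and GC content left 74 of 77 genes higher, where this fit called 37.3% of all tested genes higher. The family's median was then 1.54, against 0.095 for all genes. In that fit 5387 genes were higher and 3914 lower, against 4904 and 5450 without it. Rps10 lost its call.

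**Figure D2:**
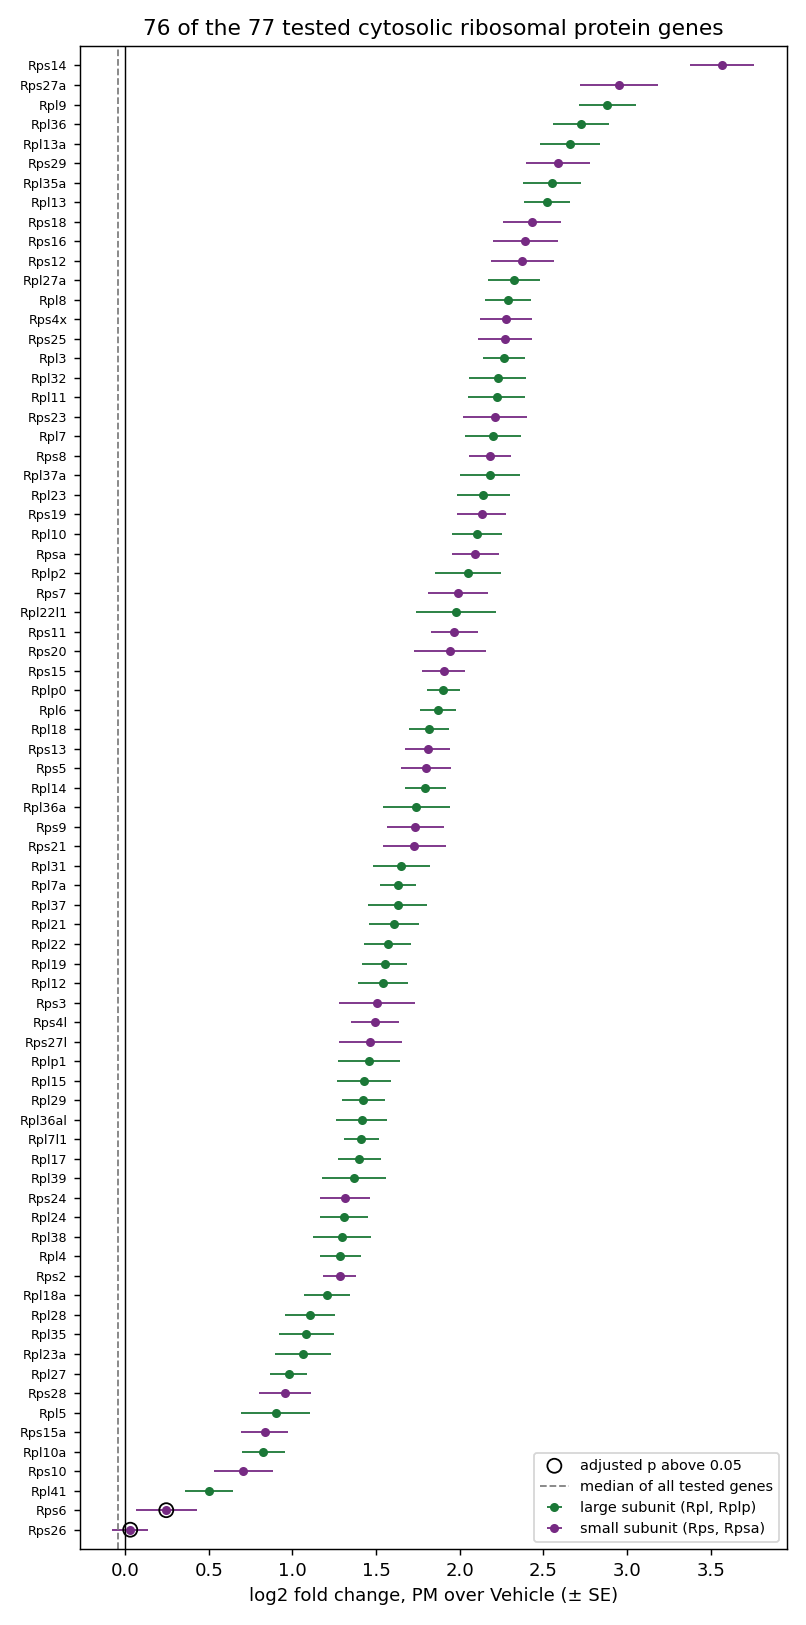
Log2 fold change of PM over Vehicle (horizontal axis, ± SE) for 76 of the 77 tested genes, ordered by size and coloured by subunit. Rps14 stands at 3.57 at the top, the interquartile range is 1.40 to 2.21, and Rps26 and Rps6, circled, are the genes that did not pass.

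The largest difference belonged to Rps14, a platform protein of the small subunit whose reduced dose underlies the anaemia of the human 5q deletion syndrome. Its level in PM was lowest at 297 CPM, had a median of 351 CPM and reached 625.2 CPM, against 28.6, 39.0, 32.2, 40.4 and 33.0 CPM in Vehicle libraries 1 to 5. The lowest PM library stood far above the highest Vehicle library. The fold was 11.9 (log2 3.57, SE 0.19, edgeR adjusted p = 5.59e-09), the fifth largest log2 fold change of all tested genes. With the trend in length and GC taken out, the log2 fold change was 3.31.

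Rps27a is made as a fusion of ubiquitin with a small subunit protein and so supplies both. It measured 148 CPM in the lowest, 196 CPM in the median and 408 CPM in the highest PM library, against 26.3, 33.5, 26.7, 31.1 and 34.4 CPM in Vehicle libraries 1 to 5. The groups were well apart, with a log2 fold change of 2.95 (SE 0.23, edgeR adjusted p = 1.46e-07). The large subunit genes Rpl9, Rpl36 and Rpl13a were also among the largest. Rpl9 averaged 414 ± 170 CPM in PM and 55.7 ± 4.93 CPM in Vehicle, a log2 fold change of 2.88. Rpl36 averaged 147 ± 41.8 CPM in PM and 22.7 ± 4.51 CPM in Vehicle, a log2 fold change of 2.73. Rpl13a, which in human cells also leaves the ribosome to silence inflammatory messages, averaged 476 ± 187 CPM in PM and 75.3 ± 4.54 CPM in Vehicle, a log2 fold change of 2.66. In Rps27a and in these 3 genes PM 3 was the highest library of all.

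At the other end stood Rps26, a small subunit protein at the mRNA exit channel. PM libraries 1 to 6 had 139.6, 187, 232, 186, 183 and 173 CPM, and Vehicle libraries 1 to 5 had 185, 183, 179.9, 186 and 167 CPM. The groups overlapped, with PM 1 the lowest and PM 3 the highest of all libraries. The log2 fold change was 0.031 (SE 0.11, edgeR adjusted p = 0.812). Without PM 3 it was -0.064. Its neighbour on chromosome 10, Rpl41, encodes the smallest and most basic ribosomal protein. Rps26 is annotated on the minus strand at chr10:128624534-128626747 (GRCm38) and Rpl41 on the same strand at chr10:128548114-128549305. Rpl41 measured 236, 274 and 439 CPM in the lowest, median and highest PM library, against 199.6, 211, 201, 229 and 213 CPM in Vehicle libraries. The groups did not overlap but came close, and the log2 fold change was 0.50 (SE 0.14, edgeR adjusted p = 0.00678).

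Rps6 is the small subunit protein phosphorylated by the S6 kinases, and its phosphorylated form is widely used to mark active neurons and mTOR signalling. It lies at chr4:86854660-86857412 (GRCm38, minus strand). In the first set PM libraries had 120.5, 166 and 195 CPM, against 93.0, 113 and 90.7 CPM in Vehicle libraries. In the second set PM libraries had 99.1, 98.6 and 81.4 CPM, against 115 and 116 CPM in Vehicle libraries. All PM libraries were thus above the Vehicle libraries of their set in the first, and below them in the second. Over both sets the log2 fold change was 0.25 (SE 0.18, edgeR adjusted p = 0.244). Within the sets it was 0.70 (adjusted p = 0.000638) and -0.31 (adjusted p = 0.115), and these differed in edgeR's test of the difference (adjusted p = 0.00408).

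The next smallest differences belonged to Rps10, Rpl10a and Rps15a. Rps10, a small subunit protein ubiquitinated when ribosomes collide, measured 105 to 236 CPM in PM, with a median of 129 CPM, against 75.1 to 109 CPM in Vehicle. The ranges overlapped, and the log2 fold change of 0.71 (SE 0.18, edgeR adjusted p = 0.0029) became -0.13 (adjusted p = 0.601) once the trend with length and GC was removed. Rpl10a, a large subunit protein, averaged 112 ± 29.1 CPM in PM and 64.2 ± 8.44 CPM in Vehicle. Its log2 fold change was 0.83 (SE 0.13, edgeR adjusted p = 6.78e-05) and, after removing that trend, 0.42. Rps15a, a small subunit protein, averaged 174 ± 55.5 CPM in PM and 97.2 ± 3.79 CPM in Vehicle. Its log2 fold change was 0.83 (SE 0.14, edgeR adjusted p = 0.000142) and, after removing it, 1.53, where an annotated transcript of 5130 bases was taken as its length.

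**Figure D3:**
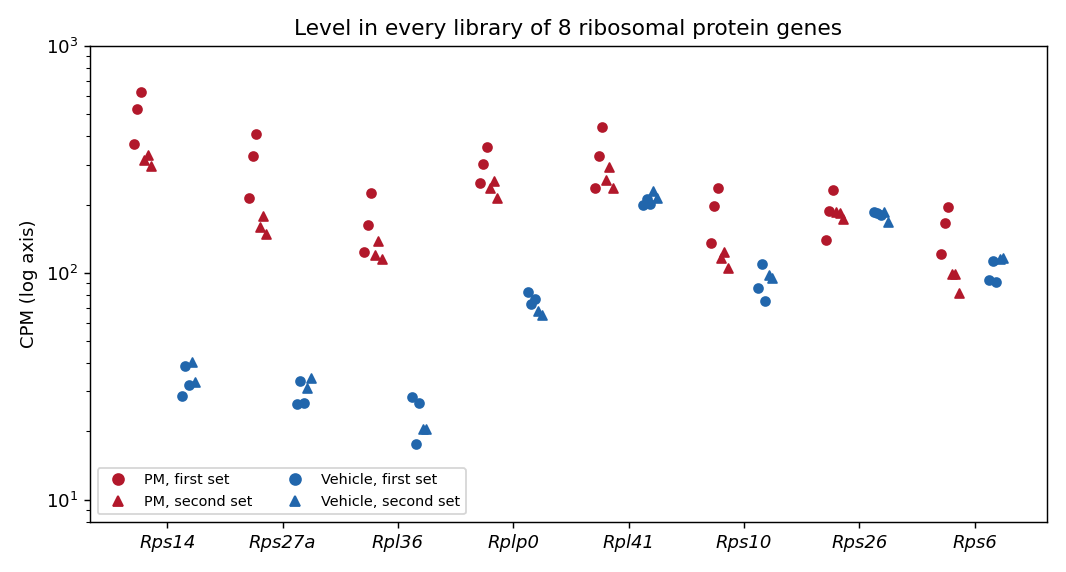
Level in CPM (vertical log axis) of 8 ribosomal protein genes in every library, PM left of Vehicle, circles for the first and triangles for the second set. The groups are far apart for Rps14 and Rps27a, close for Rpl41, and overlap for Rps10, Rps26 and Rps6.

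The stalk of the large subunit, built of the scaffold Rplp0 and the acidic proteins Rplp1 and Rplp2, recruits the elongation factors. All 3 genes rose. Rplp0 measured 214, 251 and 357 CPM in the lowest, median and highest PM library, against 82.2, 72.9, 76.6, 68.2 and 65.2 CPM in Vehicle libraries. The fold of 3.74 (SE 0.10 on the log2 scale) had the smallest adjusted p of the family, 5.13e-09 in edgeR. Rplp1 averaged 683 ± 251 CPM in PM and 247 ± 38.4 CPM in Vehicle, and Rplp2 averaged 158 ± 57.2 CPM in PM and 37.8 ± 6.39 CPM in Vehicle. Their log2 fold changes were 1.46 and 2.05, with no overlap between groups in either gene. Per kilobase of transcript, Rplp1 had the highest level of the tested ribosomal protein genes in both groups, at 1369 CPM per kilobase in PM and 494 in Vehicle.

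Rpl5 and Rpl11, which join the ribosome with 5S RNA and bind Mdm2, had unlike fold changes. Rpl11 averaged 233 ± 83.6 CPM in PM and 49.9 ± 2.97 CPM in Vehicle, a log2 fold change of 2.22 (SE 0.17, edgeR adjusted p = 9e-08). Rpl5 averaged 185 ± 71.3 CPM in PM and 97.4 ± 15.5 CPM in Vehicle, a log2 fold change of 0.90 (SE 0.21, edgeR adjusted p = 0.00163). Its exons overlap those of Fam69a on the opposite strand over 46.6% of its transcript, and no source used here states how strand was handled in counting. Among the 8 genes of the family whose exons overlap other rows, Rpl35 (68.3%) and Rpl23a (55.4%) overlapped more. Their log2 fold changes were 1.08 and 1.07. The part of such overlap in the fold changes was not tested. In the list of p53 targets and nucleolar stress genes, 3 of 10 tested genes rose, 2 fell and 5 did not pass, with a median log2 fold change of 0.020. These counts are near or below the shares of all tested genes, 32.7% higher and 36.4% lower, and show nothing particular to the list. Its smallest p-values belonged to Bax and Bbc3, promoters of cell death, at 1.70 and 1.30, to Phlda3, an inhibitor of Akt, at 1.22, and to Zmat3, an RNA-binding p53 target, at -1.36. Mdm2, given here as the partner of Rpl5 and Rpl11, had -0.032 (edgeR adjusted p = 0.746).

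Several ribosomal proteins come in paralog pairs, of which the second member is often tissue-restricted. Rpl22 averaged 141 ± 39.2 CPM in PM and 47.7 ± 2.52 CPM in Vehicle, and Rpl22l1 averaged 71.7 ± 39.1 CPM in PM and 17.6 ± 3.51 CPM in Vehicle. In mouse cells Rpl22 represses Rpl22l1. Both rose, by log2 fold changes of 1.57 and 1.98. Rpl36a and its autosomal copy Rpl36al had log2 fold changes of 1.74 and 1.41, and Rpl7 and Rpl7l1 had 2.20 and 1.41. Rpl3, near the peptidyl transferase centre, averaged 589.6 ± 153 CPM in PM and 123 ± 10.2 CPM in Vehicle, a log2 fold change of 2.26. Its muscle paralog Rpl3l stayed at or below 0.655 CPM in every library. Rpl10 and Rpl39 lie on the X chromosome. Rpl10 averaged 237 ± 66.3 CPM in PM and 55.3 ± 3.81 CPM in Vehicle, and Rpl39 averaged 90.2 ± 41.4 CPM in PM and 34.9 ± 4.73 CPM in Vehicle. Their copies Rpl10l and Rpl39l, known from the mouse testis, had no count and at most 0.327 CPM in a library. A count of 0 allows up to 3 counts, which is 0.169 CPM of gene counts in the deepest library and 0.499 in the shallowest (counting error only).

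Too few counts for a test were found in 7 genes, and 4 of them encode core proteins of every ribosome. Rpl26 had 0 counts in all libraries, Rpl30 had 10 counts summed over the PM libraries and 3 over the Vehicle libraries, and Rpl34 had 50 and 6. Rps27 had 0.146 to 1.29 CPM in PM and 0.163 to 0.989 CPM in Vehicle. The remaining 3, Rpl10l, Rpl3l and Rpl39l, are the restricted paralogs. All 4 core genes have near-identical annotated copies elsewhere in the genome, meaning at least 98% identity over 100 bases or more: 4 for Rpl26, 6 for Rpl30, 3 for Rpl34 and 2 for Rps27. Such copies are common in the family, in 70 of the 84 genes, with at most 17 for Rpl21, and 66 of those 70 passed the filter. Rpl9, with 6 copies, is an example. Levels of all genes with copies are uncertain, because reads shared with a copy may be dropped or split.

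The coding sequences show the case of Rps27, whose row was near 0, beside its retrogene Rps27rt, whose row was 0 throughout, and its paralog Rps27l, which was counted. The first 60 of 255 coding bases follow, from GENCODE M21 on GRCm38, 5′ to 3′, with capitals where a base differs from Rps27.
Rps27: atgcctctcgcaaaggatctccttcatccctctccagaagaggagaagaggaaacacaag
Rps27rt: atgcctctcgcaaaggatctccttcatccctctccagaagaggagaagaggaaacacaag
Rps27l: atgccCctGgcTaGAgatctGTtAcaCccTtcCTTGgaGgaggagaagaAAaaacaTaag
Rps27 and Rps27rt were identical over all 255 bases, and Rps27l differed from Rps27 at 61 of them, 18 within the stretch shown. Rps27l, a target of p53, averaged 15.0 ± 6.08 CPM in PM and 5.53 ± 0.483 CPM in Vehicle, a log2 fold change of 1.47 (SE 0.19, edgeR adjusted p = 1.22e-05). The genes with no near-identical copy rose as well: 11 of 11 tested, with a median log2 fold change of 1.73. Among all genes with copies 64 of 66 rose, with a median of 1.81. Among those with 4 or more copies it was 24 of 25, with a median of 1.63. Of all tested genes 32.7% were higher.

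Start sequences were compared within the family because the TOP motif sits at the first base of the message. RefSeq promoters (GRCm38.p6) were found for 63 of the 84 genes. Of these, 13 began exactly at the annotated start with a C in a run of 5 or more pyrimidines, which is 20.6%, against 3.01% of all 27025 genes with a sequence and none of 69 mitochondrial ribosomal protein genes. The annotated start is a single position. With the run allowed to begin up to 10 bases to either side of it, the shares were 61.9% of the family, 34.4% of all genes and 44.9% of mitochondrial ribosomal protein genes, so the contrast depended on the exact start. Shown are the 2 with the largest log2 fold changes, the 2 with the smallest, a stalk gene and Rps27. Each has 25 bases before the start and 15 from it on. Capitals mark the pyrimidine run counted from the annotated start on, and pyrimidines also directly precede the start in each.
Rpl35a, chr16:33056457-33056496, plus strand: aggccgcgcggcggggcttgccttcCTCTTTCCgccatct
Rps18, chr17:33955651-33955690, minus strand: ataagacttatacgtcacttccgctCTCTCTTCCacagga
Rplp2, chr7:141447626-141447665, plus strand: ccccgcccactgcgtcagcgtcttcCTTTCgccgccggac
Rps10, chr17:27635230-27635269, minus strand: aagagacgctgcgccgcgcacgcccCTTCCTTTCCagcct
Rps6, chr4:86857353-86857392, minus strand: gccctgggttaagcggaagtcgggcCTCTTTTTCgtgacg
Rps27, chr3:90213634-90213673, minus strand: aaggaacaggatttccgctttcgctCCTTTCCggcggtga

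Genes with such a start had a median log2 fold change of 1.36 over 12 tested, with 11 higher, and those with another start had 1.74 over 45, with 44 higher. Counted from the annotated start on, the run was 8 pyrimidines long in Rpl35a, whose log2 fold change was 2.55, and 9 in Rps6, at 0.25. The letters CTTCCG, the core bound by factors of the ETS family, were looked for on both strands in the 300 bases around each start. They were found in 42 of the 63 promoters (66.7%), in 56.5% of mitochondrial ribosomal protein promoters and in 18.8% of all promoters. The motif can overlap a pyrimidine run where one continues into the other.

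The rise was present in both deposit sets and smaller in the second. In the first set 76 of 77 genes were higher in PM, or 98.7%, where 32.1% of all tested genes were, and Rps26 did not pass. In the second set 72 were higher, or 93.5%, where 32.3% of all tested genes were, and Rpl41, Rpl5, Rps10, Rps26 and Rps6 did not pass. A fit of the second set alone changed 4 of these calls. In it Rpl41 (log2 fold change 0.26, adjusted p = 0.0382), Rpl5 (0.27, adjusted p = 0.0143) and Rps10 (0.26, adjusted p = 0.0238) were higher and Rps6 (-0.30, adjusted p = 0.0158) was lower. That fit had 75 higher and 1 lower of the 77 genes, where 33.2% of all genes were higher and 32.3% lower. The family's median log2 fold change was 1.97 for the first set and 1.49 for the second. In 75 of 77 genes the value of the second set was below that of the first, Rpl28 and Rps26 being the exceptions. The order of the genes was similar in the 2 sets, which share no library (Spearman's rho 0.906 over 77 genes, a description).

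The test of the difference between sets called 22 of the 77 genes, all with a smaller PM effect in the second set. That is 28.6%, where 12.1% of all tested genes had a lower and 17.5% a higher effect in the second set. Rpl5 had the smallest p: the first set gave a log2 fold change of 1.42 and the second 0.26 (difference -1.16, SE 0.24, edgeR adjusted p = 0.00307). Rps3, a small subunit protein that also acts in DNA repair, had 2.06 and 0.83 (difference -1.22, SE 0.27, edgeR adjusted p = 0.00464). Its levels were 376, 532 and 636 CPM in PM libraries of the first set, against 111, 156 and 104 CPM in Vehicle libraries. In the second set they were 274, 284 and 241 CPM in PM, against 148 and 151 CPM in Vehicle. The groups were apart in both sets, and the second-set PM libraries lay below all 3 of the first. Rps15a had 1.16 and 0.42 (difference -0.74, SE 0.18, edgeR adjusted p = 0.0059).

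Other measures differed between the sets in PM libraries. Counts outside features averaged 20.4% in PM libraries of the first set and 31.7% in those of the second, and Rn45s averaged 14.4% and 5.60%. Vehicle libraries averaged 61.3% and 61.5% for the first measure, and 1.25% and 2.04% for Rn45s. The part of these in the smaller effect was not tested. The count of 22 depended on single libraries: it was 65 without PM 1, 10 without PM 2, and 11, 13, 9 and 6 without Vehicle 1, 3, 4 and 5. The share of all genes lower in the second set moved too, to 16.6% without PM 1, 8.75% without PM 2, and 8.24%, 8.12%, 8.42% and 4.95% without those Vehicle libraries. Without Vehicle 5 the family's share was 7.79%, close to that of all genes. After removal of the length and GC trend the count was 45, or 58.4%, where 16.6% of all genes were lower in the second set.

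**Figure D4:**
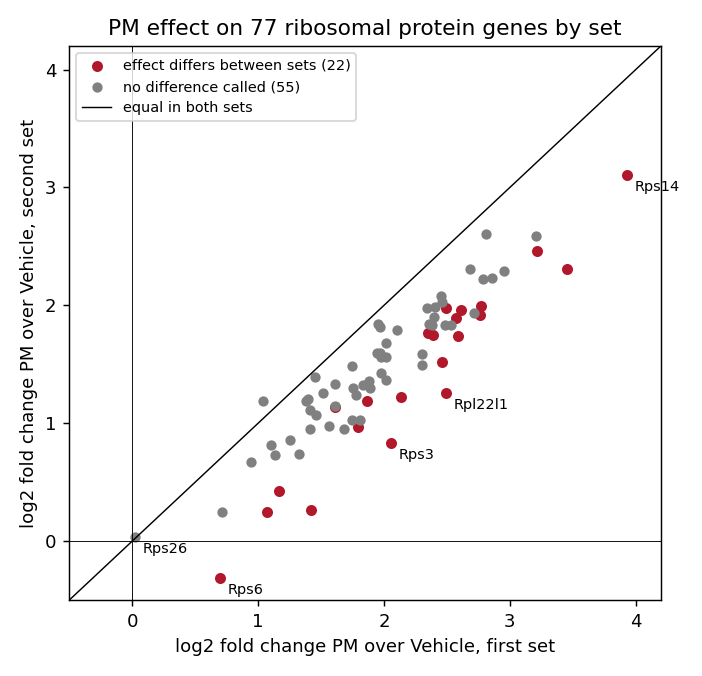
Log2 fold change of PM over Vehicle by set, the first on the horizontal axis and the second on the vertical axis, for the 77 tested genes, with the line of equal effect. Points lie below the line in 75 genes, and the 22 genes whose effect differed between sets are in red.

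Among themselves the genes were not shifted by 1 common factor, since the fold ran between 1.02 for Rps26 and 11.9 for Rps14. Genes with lower Vehicle levels tended to have larger log2 fold changes (Spearman's rho -0.472 over 77 genes, a description, and the Vehicle level enters both measures). The rho was -0.138 with transcript length, -0.0079 with GC content and -0.029 with the number of near-identical copies. The order of levels was partly kept between the groups, with a rho of 0.628 between PM and Vehicle mean CPM. Per kilobase, Rpl7l1 was lowest in both groups, at 18.0 CPM in PM and 6.85 CPM in Vehicle.

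Genes that work with the ribosome were set beside the family, and their counts are to be read against the 32.7% of all tested genes that were higher and the 36.4% that were lower. Of the ribosome components named outside the rule, all 4 tested rose, among them Rps3a1 by a log2 fold change of 2.33, Fau by 1.71 and Gnb2l1 (the scaffold Rack1) by 1.62. Among other genes known for TOP messages, mostly translation factors, 13 of 15 rose and 2 fell, with a median of 1.12. Eef1g, a subunit of the elongation factor that recharges Eef1a, had 1.89, Eef2, the translocase, 1.27, Eef1d 1.40 and Eif3f 1.33. The 2 that fell were Pabpc1 at -0.33 (-0.092, adjusted p = 0.236, after removal of the length and GC trend) and Hnrnpa1 at -0.63, both outside the naming rule and named after their values were seen. Of 77 mitochondrial ribosomal protein genes 65 rose, 3 fell and 9 did not pass, with a median of 0.94.

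Ribosome assembly factors moved less evenly. Of 32 tested, 21 rose, 4 fell and 7 did not pass (24 higher and 1 lower after removal of the length and GC trend), with a median log2 fold change of 0.54. Nhp2, of the pseudouridylation particles, had 1.70, Mrto4, which prepares the stalk site, 1.63, the cleavage factor Nob1 1.09 and Rrp1 0.98. Of 20 regulators of mTOR and of TOP messages 14 fell, 2 rose and 4 did not pass, with a median of -0.49. Eif4ebp2, the main brain inhibitor of cap-dependent translation, had -1.67, Rictor, of the second mTOR complex, -1.57, the kinase Mtor itself -0.90 and the S6 kinase Rps6kb1 -0.91. These genes have a median transcript length of 5372 bases. After removal of the length and GC trend 4 of the 20 were higher and 6 lower. In that fit 37.3% of all genes were higher and 27.1% lower. The list's median was then -0.098, against 0.095 for all genes, so the list lay less far below all genes than before.

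**Figure D5:**
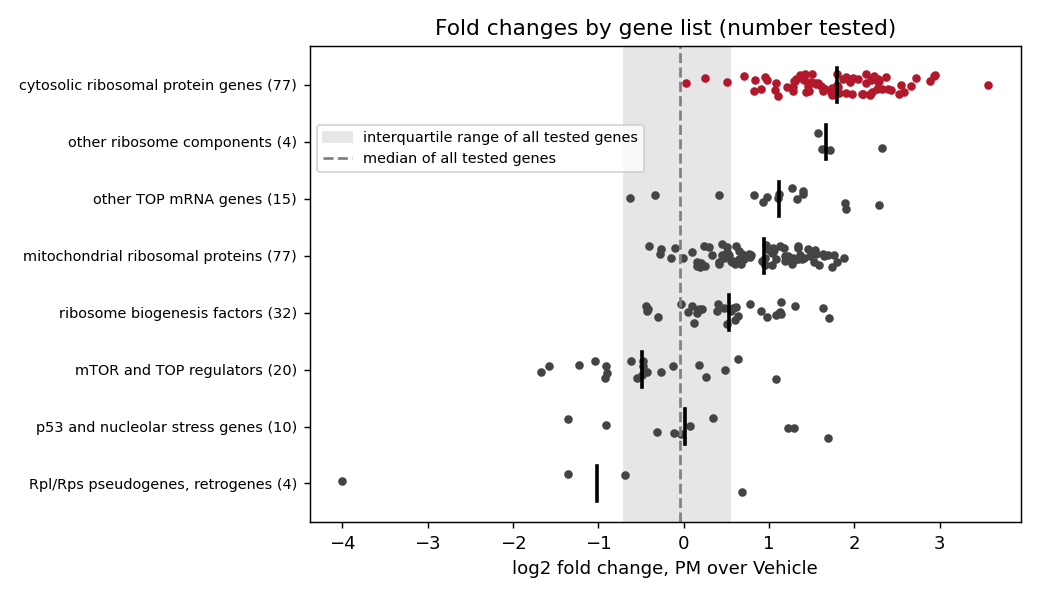
Log2 fold change of PM over Vehicle (horizontal axis) of each tested gene in 8 lists, with a bar at each list's median and the interquartile range of all tested genes in grey. Cytosolic ribosomal protein genes have the highest median, 1.79, and the mTOR and TOP regulators have -0.49.

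Rows named as pseudogenes or retrogenes of the family, were a list added after values had been seen. Of 9 such rows 4 were tested, of which 3 fell and 1 did not pass, where 36.4% of all tested genes fell. So few rows, at low levels, show nothing general about such rows. Rps15a-ps6 had a log2 fold change of -4.00, Rpl37rt -1.35 and Rpl14-ps1 -0.68, all past the threshold. Rps19-ps3 had 0.68 (edgeR adjusted p = 0.122), with -0.12 for the first set and 2.08 for the second (adjusted p of the difference = 0.00648). Together these rows had 4.13 to 7.95 CPM in PM and 13.9 to 22.6 CPM in Vehicle.

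Marker genes of hippocampal cell types were present. Set against all tested genes, 32.7% higher and 36.4% lower, the counts of neuron and astrocyte markers were near the background without removal of the length and GC trend. Microglia and oligodendrocyte markers had more higher genes, and endothelial markers had none lower, over few genes. Of 9 neuron markers 3 rose, 4 fell and 2 did not pass, and their summed level was 9233 to 10895 CPM in PM and 10269 to 11704 CPM in Vehicle. Of 8 microglia markers 6 rose and 2 did not pass, with sums of 264 to 390.0 CPM in PM and 195 to 221 CPM in Vehicle. Of 6 oligodendrocyte markers 5 rose and 1 did not pass, with sums of 4047 to 9299 CPM in PM and 3734 to 4751 CPM in Vehicle. Of 7 astrocyte markers 3 rose, 2 fell and 2 did not pass (7 higher and 0 lower after removal of the length and GC trend), with sums of 3503 to 6330.3 CPM in PM and 7154 to 7576 CPM in Vehicle. Of 5 endothelial markers 2 rose and 3 did not pass, with sums of 103 to 196 CPM in PM and 96.0 to 119.7 CPM in Vehicle. After removal of that trend 4 endothelial, 6 microglia and 6 oligodendrocyte markers were higher and 0 lower, and 2 neuron markers were higher and 3 lower. In that fit 37.3% of all genes were higher and 27.1% lower. The choroid plexus markers, of which none of 4 tested passed, had sums of 18.1 to 2460.5 CPM in PM and 38.5 to 1155 CPM in Vehicle, a wide range between libraries within both groups. The haemoglobin rows Hbb-bs, Hbb-bt, Hba-a1 and Hba-a2 were at 0 in all libraries, and Alas2 fell. The part of cell composition in the ribosomal protein values was not tested.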

How the data were processed

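Each library had 1 deposited file of read counts per gene symbol, not normalised by the authors. The submitters' processing notes name FastQC 0.11.9, Trimmomatic 0.36, STAR, SAMtools 1.9, Picard 2.9.2 and HTSeq 0.9.1 with mm10 and hg19. Annotation and strand setting are not given in the sources used here. The labels' protocols describe ribosomal RNA removal, although the molecule field names polyA RNA. HTSeq summary rows (outside features, 18.8% to 62.0% of counts) stayed out of library sizes.

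Counts were fitted in edgeR 4.0.16 (R 4.3.3; filterByExpr with minimum count 10, TMM scaling, robust quasi-likelihood test, two-sided, Benjamini-Hochberg over 14982 genes, threshold 0.05) with the deposit set as covariate. A second model with 1 mean for each group in each set gave the effects by set and their difference. SE is the absolute log2 fold change over the root of the F statistic. CPM values use TMM-scaled library sizes, while shares use unscaled gene counts. Transcript length and GC content came from GENCODE M21, with 1 principal transcript per gene, and their smooth trend was removed per library with mgcv 1.9.3. Copies were found with BLAST+ 2.17.0. The fits were tested on simulated data. DESeq2 1.42.0, other scalings, no filter, no covariate, each set alone and leaving out each library were the alternatives.

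Named genes were the 6 largest and 6 smallest log2 fold changes, those not passing, the 4 smallest p-values of the set difference, the stalk, ubiquitin fusion, paralog, Mdm2 and S6 genes, those not tested, and up to 4 genes of smallest p per other list. The members and lists were chosen with earlier results of these data known. The individual values of 2 named genes are not reported here.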

Additional observations from a re-analysis of the deposited data

Results flagged for a closer look

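The PM effect on 15 of the ribosomal protein genes described above differed between the deposit sets in edgeR's test of the difference, always with a smaller value in the second set. They are 15 of 28 named genes, of which 4 (Rpl5, Rps6, Rps3 and Rps15a) were named for their small p in this test, so the count is partly fixed by the choice. Over the whole family it was 28.6%, where 12.1% of all tested genes had a lower and 17.5% a higher effect in the second set. The second-set log2 fold change minus that of the first was -1.24 for Rpl22l1, -1.22 for Rps3, -1.16 for Rpl5, -1.15 for Rps27a, -1.01 for Rps6, -0.94 for Rplp2 and -0.92 for Rpl36a. It was -0.83 for Rps14, -0.82 for Rps10, -0.75 for Rpl9, -0.74 for Rps15a, -0.67 for Rpl22, -0.64 for Rpl10, -0.51 for Rpl3 and -0.47 for Rpl7l1. In Rps6 the sign also turned, the first set giving 0.70 and the second -0.31. A check for outlying libraries marked none in the 58 groups of CPM values examined, where chance alone would mark about 1 in 20. With so few libraries in a group a departure can go unmarked, and PM 3 had the highest summed share, 2.67%.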

How the results depend on the processing

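The count of ribosomal protein genes higher in PM was 74 to 76 in all 20 alternatives, where 27.1% to 37.3% of all genes were higher. Without the filter on low counts it was 76 of 82 genes, or 92.7%. Of the 75 called genes 74 kept their call in each alternative. Rps10 was the exception (-0.13 after removal of the length and GC trend, adjusted p = 0.601). No gene was lower except Rps6 in a fit of the second set alone, which made that count 1 (log2 fold change -0.30, adjusted p = 0.0158). In the first set alone Rps6 was higher (0.80, adjusted p = 0.000991). Rps26 lay between -0.064, without PM replicate 3, and 0.12, without PM replicate 1. The count of genes whose effect differed between sets, 22, was 45 after that removal and 6 to 65 when single libraries were left out, and the same count over all genes, 4428, was 2400 to 5612. Where a set was left with 1 Vehicle library, that library was assumed to vary like the other groups. The ratio of summed shares was 6.25 over all counts. The cause of these changes was not tested.

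Replicate numbers are shared by the groups, and deviations of same-numbered libraries correlated at -0.176 to -0.0050. The deviations were centred on each group's mean within its set, over few libraries. The correlations therefore cannot tell whether the numbers pair the samples. With a replicate block 75 genes of the family were higher and none lower, where 28.8% of all genes were higher and 32.6% lower.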
